A study of Pomacea canaliculata with 34 samples.

Results

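Embryos of Stage 5 were compared with embryos of Stage 4 of Pomacea canaliculata, a freshwater apple snail whose camera-type eyes can regrow after removal. The comparison is between 6 of the 34 libraries of a developmental time-course, 3 titled as Stage 5 and 3 titled as Stage 4. The test of each gene took its filter for low counts, its scaling and its spread between libraries from all 34 libraries. Each library is polyadenylated RNA of whole embryos taken out of the egg, and no strain, treatment or age in hours or days is given for either stage. Total reads in genes were 21358973, 16608796 and 16878374 in replicates 1 to 3 of Stage 5, and 20917802, 21147833 and 17500570 in replicates 1 to 3 of Stage 4. The labels do not say whether the libraries of a stage are separate clutches. The p-values thus weigh differences against the spread between libraries, and that spread may be technical.

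Apple snails lay their eggs above the water, and each embryo develops inside a calcareous egg shell on the perivitelline fluid it takes up. As in other animals, an early embryo starts with RNA laid down by the mother, and this RNA is replaced over development by transcripts of the embryo's own genes. Whole-embryo RNA is a mixture of all cell types, so a lower level can mean fewer cells of a type or less RNA per cell, and these cannot be told apart. Genes carry only LOC identifiers of the species' RefSeq annotation, with no product names in the tables used here. No gene is therefore given a function, and the embryos could not be checked against marker genes of any tissue.

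The 6 libraries separated by stage. Each was placed on a line that runs from the mean of the Stage 3 libraries, at 0, to the mean of the Stage 6 libraries, at 1, in log2(CPM + 1) over all 17441 tested genes. CPM is the reads of a gene per 1000000 reads of the library, scaled by the TMM method of edgeR. It is a relative level and not an amount per embryo. It also differs from a plain share of the reads, since each library is divided by a TMM factor. The mean factor was 0.981 at Stage 5 and 0.898 at Stage 4. Stage 5 libraries stood at 0.806, 0.785 and 0.788, and Stage 4 libraries at 0.317, 0.398 and 0.487. The groups did not overlap, and the mean position was 0.793 ± 0.0114 at Stage 5 and 0.401 ± 0.0852 at Stage 4 (SD, n = 3 each). The difference was 0.393 (two-sided exact permutation test, p = 0.1, the smallest that 3 against 3 libraries allow). Stage 4 libraries were spread more widely than those of Stage 5, with replicate 3 nearest to Stage 5 and replicate 1 nearest to Stage 3. Replicates 2 and 3 of Stage 5 correlated most closely with a Stage 6 library (Spearman 0.991 and 0.992), and the other 4 libraries with one of their own stage. No library was a copy of another, since the chi-square statistic per gene between libraries of a stage ran from 11.9 to 27.6, where counting noise alone gives about 1.

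**Figure D1:**
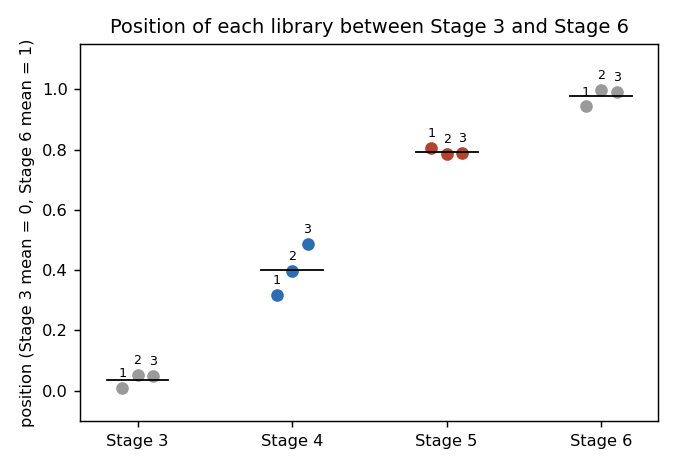
Position of each library (y axis, no unit) on the line from the mean of Stage 3 to the mean of Stage 6, by stage (x axis). Points are libraries with their replicate number, lines are stage means, and each Stage 3 or Stage 6 library was placed on a line built without it. Stage 5 libraries lie between 0.785 and 0.806 and Stage 4 libraries between 0.317 and 0.487.

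Of 17441 tested genes, 3958 were called (22.7%), with 2089 higher at Stage 5 (12.0%) and 1869 lower (10.7%), by the quasi-likelihood test of edgeR at a Benjamini-Hochberg adjusted p under 0.05. Called rises were larger in fold than called falls, and 50.4% of the rises and 94.8% of the falls were under 2-fold. These sizes are of called genes only. Called rises also lay at lower levels than called falls, where a small fold is harder to call. The median called rise was 1.99-fold, with the 25th and 75th percentiles at 1.48-fold and 3.47-fold. The median called fall was 1.29-fold, with the 25th and 75th percentiles at 1.21-fold and 1.39-fold. A change of 2-fold or more was estimated for 1036 of the called rises (5.94% of tested genes) and for 98 of the called falls (0.562%). Against a 2-fold minimum, edgeR called 287 rises (1.65%) and 9 falls (0.0516%). An 8-fold or larger rise was estimated for 164 called genes and an 8-fold or larger fall for 20.

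The libraries of the called genes seldom overlapped, which follows in large part from choosing the genes by the same contrast. All Stage 5 libraries lay on one side of all Stage 4 libraries for 1856 of the 2089 called rises (88.8%) and for 1634 of the 1869 called falls (87.4%). Over all tested genes the same held for 2857 upward (16.4%) and 2688 downward (15.4%). Among Stage 4 libraries, replicate 3 was the highest for 54.8% of the called rises and the lowest for 75.2% of the called falls, and so lay nearest to Stage 5. Without replicate 1 of Stage 4 the count of calls was 2546, with 1501 rises and 1045 falls. Without replicate 1 of Stage 5 it was 2846, with 1606 rises and 1240 falls. In the fit of Stage 5 and Stage 4 alone it was 1817, with 1034 rises and 783 falls. Changes of 2-fold or more numbered 869 rises and 58 falls without replicate 1 of Stage 5, and 582 rises and 38 falls in the fit of Stage 5 and Stage 4 alone. Leaving out each of the 6 libraries in turn gave 796 to 1210 such rises and 58 to 118 such falls.

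**Figure D2:**
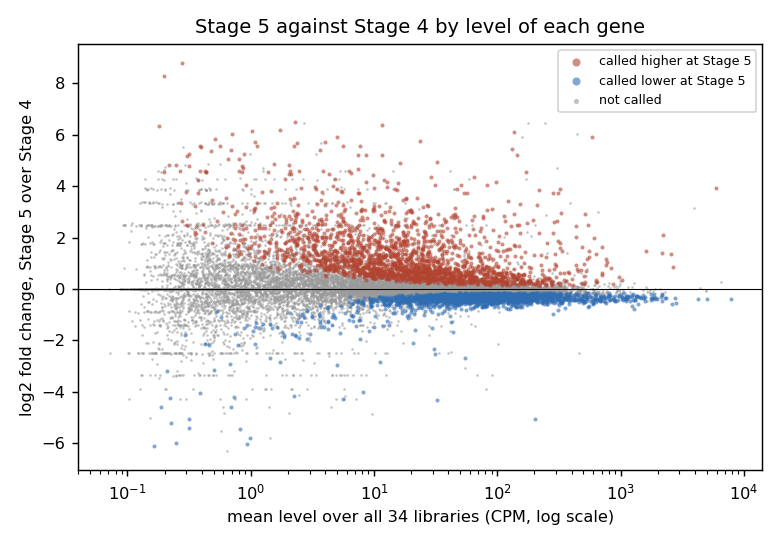
Log2 fold change of Stage 5 over Stage 4 (y axis) against the mean level over all 34 libraries (x axis, CPM, log scale), 1 point a gene. Called rises reach far above 0 over a wide range of levels, and called falls lie mostly in a narrow band under 0. Of the called falls, 1087 have a mean level from 10 to 100 CPM and 601 from 100 to 1000 CPM.

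Rises and falls lay at different levels. CPM is not divided by gene length here, so a level is the reads a gene took and not its number of transcripts. Called rises had a median level of 9.16 CPM at Stage 5 and 4.38 CPM at Stage 4, and called falls had a median of 73.7 CPM at Stage 5 and 94.3 CPM at Stage 4. Among the 92 genes with a mean above 1000 CPM over all libraries, 61 fell (66.3%) and 7 rose (7.61%). Among the 2152 genes from 100 to 1000 CPM, 601 fell (27.9%) and 247 rose (11.5%). Among the 4459 genes from 1 to 10 CPM, 95 fell (2.13%) and 642 rose (14.4%). The 8149 genes between these, from 10 to 100 CPM, divided about evenly, with 1087 falls and 1116 rises. Small folds are harder to call at low levels, and how far this shapes these shares was not tested.

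The split between rises and falls moved with plain library totals in place of TMM, but little with RLE, another scaling. With TMM 52.8% of the calls rose and with RLE 54.2%, with 2144 rises and 1810 falls. With plain library totals 78.7% rose, with 3083 rises and 832 falls. Library totals put the median over all genes, in log2 fold change, at 0.12, against 0 with TMM. The pattern by level stayed near that of TMM with RLE, with 585 falls and 258 rises from 100 to 1000 CPM. It moved with library totals. With library totals 45 of the 92 genes above 1000 CPM fell (48.9%) and 10 rose (10.9%). From 100 to 1000 CPM, however, 306 genes fell (14.2%) and 459 rose (21.3%), the other way round from TMM, and from 10 to 100 CPM 415 fell (5.09%) and 1731 rose (21.2%). Rises of 2-fold or more numbered 1230 and falls of 2-fold or more 60 with library totals. With limma-voom 44.4% of the calls rose, with 1324 rises and 1655 falls, so falls were the more numerous with this tool.

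Reads were spread over more genes in each Stage 5 library than in any Stage 4 library. The genes called lower held 34.2%, 34.7% and 35.1% of all reads in the Stage 5 libraries, and 42.1%, 41.6% and 38.8% in the Stage 4 libraries. The genes called higher held 7.34%, 7.07% and 7.02% of the reads at Stage 5, and 3.82%, 4.13% and 4.73% at Stage 4. These shares describe genes chosen by the same contrast and carry no test. The 10 most abundant genes of each library, which were not chosen by the contrast, took 5.03% ± 0.0345 of the reads at Stage 5 and 5.45% ± 0.0999 at Stage 4 (SD, n = 3 each, groups not overlapping, two-sided exact permutation p = 0.1, the smallest possible). With every library thinned at random to 16608796 reads, 13635, 13531 and 13645 genes had 10 reads or more at Stage 5, and 12992, 13029 and 13174 at Stage 4. The mean difference was 539 genes, every Stage 5 library was above every Stage 4 library, and the two-sided exact permutation p was again 0.1.

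Of the tested genes, 323 had reads at Stage 5 and 0 at Stage 4, of which 48 were called higher. In reverse, 171 had reads at Stage 4 and 0 at Stage 5, of which 9 were called lower. Over all tested genes 12.0% were called higher and 10.7% lower. No gene with 0 reads among the 59566205 reads of Stage 4 reached a mean of 10 CPM at Stage 5, and no gene with 0 reads among the 54846143 reads of Stage 5 had a mean of 10 CPM at Stage 4. A count of 0 allows up to 3 reads in such a total. Up to 3 reads at Stage 4 with a mean of 1 CPM or more at Stage 5 was seen in 8 genes. The reverse was seen in 4 genes. Reaching a mean of 1 CPM from 0 reads at Stage 4 was seen in 2 genes, named here after their values were seen. LOC112568043 had 3.19, 0.0617 and 2.05 CPM at Stage 5 and LOC112567956 had 1.81, 0 and 1.93 CPM at Stage 5. In both, replicate 2 of Stage 5 stood at or near 0 as the Stage 4 libraries did.

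Named genes had to be called, to reach a mean of 10 CPM in the higher stage, to have at least 10 reads over the lower stage, and to show no overlap between libraries. Of such genes there were 908 upward and 1563 downward, and among them the largest log2 fold changes upward were those of a pair of neighbouring genes. LOC112560630 had 143, 90.9 and 77.5 CPM in the Stage 5 libraries, and 0.655, 0.213 and 3.80 CPM in the Stage 4 libraries. Its log2 fold change was 6.13 (SE 0.592, edgeR adjusted p = 1.46e-08). LOC112560562 had 350.5, 148 and 119 CPM at Stage 5, and 1.86, 0.534 and 8.27 CPM at Stage 4 (edgeR log2 fold change 5.90, SE 0.55, adjusted p = 7.75e-09). Leaving out replicate 3 of Stage 4 gave log2 fold changes of 7.91 for LOC112560630 and 7.44 for LOC112560562. Leaving out replicate 1 of Stage 5 gave 5.29 for LOC112560562. Both genes showed the same order of libraries, with replicate 1 highest at Stage 5 and replicate 3 highest at Stage 4. Over later stages LOC112560630 stood highest at Stage 6, at 309.6 ± 24.0 CPM (SD, n = 3), and LOC112560562 at Stage 7, at 1818 ± 140 CPM (n = 3).

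The gene next to LOC112560630 on its other side, LOC112560121, had a mean of 3952 CPM over all 34 libraries, but at this step it was not called. It averaged 0.482 CPM at Stage 5 and 0.0564 CPM at Stage 4 (edgeR log2 fold change 3.15, SE 1.68, adjusted p = 0.194). Of the 3 tested genes past LOC112560562, LOC112560655 was the only one called, at a mean of 14.3 CPM at Stage 5 and 0.643 CPM at Stage 4 (log2 fold change 4.57, SE 0.597). The neighbours were looked at after the pair had been named.

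The called rise of largest difference in level was LOC112561353. It had 993, 862 and 965 CPM at Stage 5, and 77.3, 73.3 and 33.7 CPM at Stage 4 (edgeR log2 fold change 3.93, SE 0.239, adjusted p = 1.94e-12). Its Stage 5 libraries differed little, while replicate 3 of Stage 4 stood well under the other two. For this gene replicate 3 of Stage 4 was thus the farthest from Stage 5, unlike for most called rises. The 3 tested genes on each side of it were not called. Over the series its mean stood at 1.77 CPM at Stage 3, 61.4 at Stage 4, 940.1 at Stage 5, 2850.1 at Stage 6 and 6245 at Stage 7, and it was highest at Stage 8, at 16405 ± 1125 CPM (n = 4).

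LOC112565028 was the second by difference in level. It had 614, 937 and 1066 CPM at Stage 5, and 168, 229 and 449 CPM at Stage 4 (edgeR log2 fold change 1.63, SE 0.265, adjusted p = 4.75e-05). Its larger fold came earlier, since its mean stood at 0.780 CPM at Stage 3 and 282 CPM at Stage 4. It lay in a row of 4 neighbouring called rises with LOC112565105, LOC112565357 and LOC112565150. LOC112565150 averaged 422 CPM at Stage 5 and 121 CPM at Stage 4 (log2 fold change 1.80, SE 0.271).

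The falls of largest difference in level were small in fold. LOC112562047 had 8769, 8421 and 9189 CPM at Stage 5, and 12215, 12616 and 9998 CPM at Stage 4 (edgeR log2 fold change -0.40, SE 0.0619, adjusted p = 2.46e-05). LOC112574335 had 5269, 5647 and 5462 CPM at Stage 5, and 7538, 7786 and 5903 CPM at Stage 4 (edgeR log2 fold change -0.37, SE 0.0756, adjusted p = 0.000543). In both genes replicate 3 of Stage 4 stood between Stage 5 and the other Stage 4 libraries. With library totals the log2 fold changes were -0.27 and -0.24, and both genes stayed called. When only Stage 5 and Stage 4 entered the edgeR fit, the call of LOC112574335 was lost (adjusted p = 0.0547).

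Large falls were few. LOC112576570 had 1.52, 1.11 and 2.83 CPM at Stage 5, and 15.2, 14.5 and 9.55 CPM at Stage 4 (edgeR log2 fold change -2.85, SE 0.285, adjusted p = 2.58e-08). Its level stood at 46.6 ± 3.87 CPM at Stage 2, 55.9 ± 7.45 CPM at Stage 3 and 13.1 ± 3.06 CPM at Stage 4. It stood at 1.82 ± 0.899 CPM at Stage 5 and 0.598 ± 0.208 CPM at Stage 6 (SD, n = 3 each). Its mean thus fell at each step from Stage 3 to Stage 6. LOC112561451 was called with the largest named fall, at 26.9, 31.8 and 26.2 CPM at Stage 5 and 271, 1870 and 739.5 CPM at Stage 4 (edgeR log2 fold change -5.08, SE 1.14, adjusted p = 0.00153). Libraries of this gene also differed within other stages, by 54.3-fold at Stage 2 and 27.2-fold at Stage 3. Its log2 fold change was -4.15 with replicate 2 of Stage 4 left out, and no change is read from its call. Of the 98 called falls of 2-fold or more, 17 had 10 CPM or more at Stage 4 and no overlap between libraries, against 206 of the 1036 called rises of that size by the same measure at Stage 5.

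**Figure D3:**
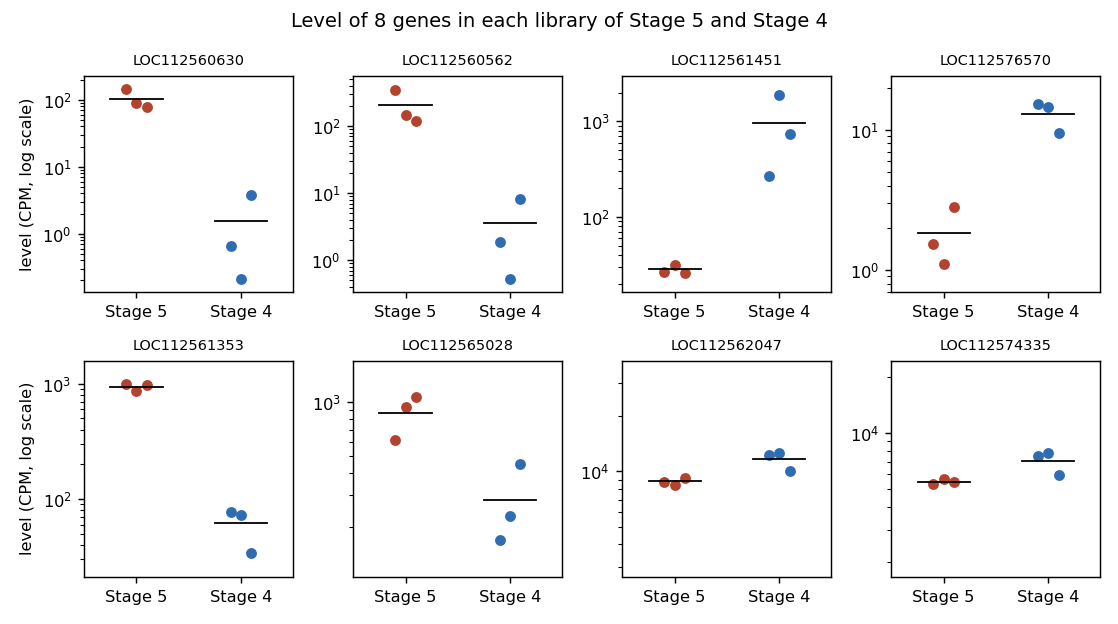
Level of 8 genes (y axes, CPM, log scale) in each library of Stage 5 and of Stage 4 (x axis); points are libraries and lines are means of 3. The top row holds the largest log2 fold changes and the bottom row the largest differences in CPM. In each panel the Stage 5 and Stage 4 libraries do not overlap, because this was required of named genes.

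The called genes were then followed in libraries of other stages, which entered the comparison only through the shared filter, scaling and spread. Stage 6 against Stage 3 shares no library with Stage 5 against Stage 4 and was tested in the same fit of all stages. Of the 2089 called rises, 1947 were also called higher in Stage 6 against Stage 3 (93.2%), 0 were called lower and 142 were not called. Of the 1869 called falls, 1752 were also called lower (93.7%), 2 were called higher and 115 were not called. Over all tested genes 52.6% were called in Stage 6 against Stage 3, 29.1% higher and 23.5% lower, and among the genes not called in Stage 5 against Stage 4 the shares were 23.2% and 17.4%. The median log2 fold change of Stage 6 over Stage 3 was 2.01 for the called rises, -0.67 for the called falls and 0.06 for all tested genes.

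The called falls of 2-fold or more were an exception. Of these 98 genes, 51 were called lower in Stage 6 against Stage 3 (52.0%) and 1 was called higher, whereas of the 1036 called rises of 2-fold or more 972 were called higher (93.8%). These counts have no fold minimum in Stage 6 against Stage 3, so they are read against the 23.5% lower and 29.1% higher of all tested genes. With a minimum of 2-fold there, the shares of all tested genes were 4.54% lower and 16.7% higher. Of the 98 falls, 73 showed no overlap between libraries and 14 differed by over 10-fold within Stage 4. Of the 1036 rises, 946 showed no overlap and 26 differed by over 10-fold within Stage 5. The 2 falls that were called higher in Stage 6 against Stage 3 were LOC112567446 and LOC112571811, named here because they were so few. LOC112567446 had 5.19, 4.32 and 5.42 CPM at Stage 5 and 9.39, 7.52 and 5.27 CPM at Stage 4, with means of 5.43 CPM at Stage 6 and 2.21 CPM at Stage 3. LOC112571811 had 0.523, 0.617 and 0.542 CPM at Stage 5, and 1.20, 0.587 and 3.06 CPM at Stage 4. In both genes the libraries of Stage 5 and Stage 4 overlapped.

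Over the series the median of the called rises was higher at later stages and that of the called falls lower. The median level of the called rises stood at 1.12 CPM at Stage 2, 2.14 at Stage 3, 4.38 at Stage 4, 9.16 at Stage 5, 12.3 at Stage 6, 21.2 at Stage 8 and 27.5 in the hatchling. The median level of the called falls stood at 125 CPM at Stage 2, 109.8 at Stage 3, 94.3 at Stage 4, 73.7 at Stage 5, 66.7 at Stage 6, 44.8 at Stage 8 and 34.6 in the hatchling. Leaving out Stage 4 and Stage 5, the hatchling had the highest mean for 37.5% of the called rises and Stage 9 for 21.6%, against 30.8% and 9.00% of all tested genes. Stage 2 had it for 1304 of the 1869 called falls and Stage 3 for 467, against 4055 and 2090 of the 17441 tested genes. Means were ranked here without a test. The steps on each side share libraries with this one, so their values are only set beside it. The median log2 fold change of the called rises was 0.52 in Stage 4 against Stage 3, 0.99 in Stage 5 against Stage 4 and 0.31 in Stage 6 against Stage 5, and that of the called falls was -0.19, -0.36 and -0.13 in the same order.

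**Figure D4:**
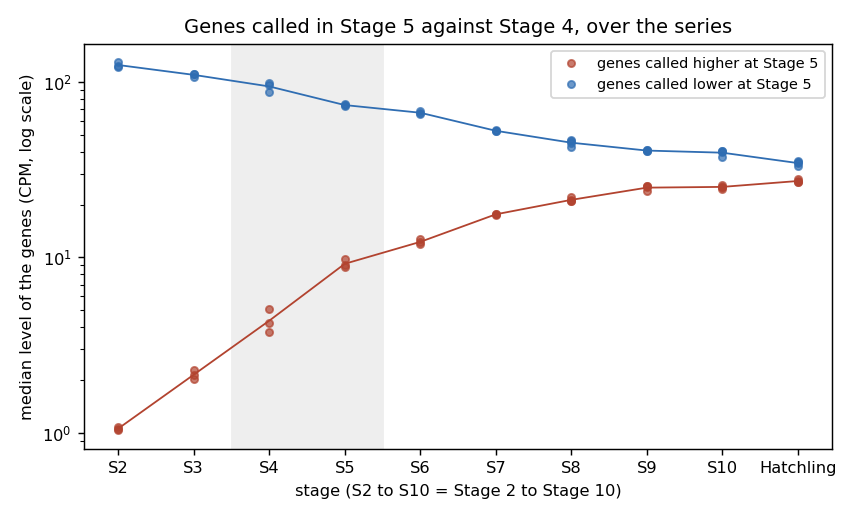
Median level (y axis, CPM, log scale) of the 2089 genes called higher and the 1869 genes called lower at Stage 5, in each of the 34 libraries by stage (x axis); points are libraries, lines join stage means, and the shaded stages are the ones compared. Each point is the median over genes in 1 library, so it can differ slightly from the medians of stage means given in the text. The step between Stage 5 and Stage 4 follows from how the genes were chosen, and the steps on each side of it share libraries with that choice.

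Some called rises lay beside each other in the genome. Genes were put in the order of the RefSeq assembly ASM307304v1, which may not be the assembly behind the counts, and 17422 of the tested genes had a place on a linkage group. When a gene rose, the next tested gene also rose in 424 of 2086 neighbouring pairs (20.3%), against 12.0% of all 17408 pairs in which the next gene rose. For falls the figures were 305 of 1868 pairs (16.3%) against 10.7%. These shares are a description with no test. Rises formed 8 unbroken runs of 5 or more tested genes, with 57 genes in all, and falls formed 1, with 6 genes.

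The longest run held 14 called rises, from LOC112562077 to LOC112562089. Its mean levels ran from 2.13 to 427 CPM at Stage 5 and from 0.148 to 109 CPM at Stage 4, with log2 fold changes from 1.97 to 4.36. The summed level of its genes was 1224, 1758 and 1831 CPM in the Stage 5 libraries, and 178, 315 and 342 CPM in the Stage 4 libraries. The most abundant member, LOC112561402, had 375, 398 and 507 CPM at Stage 5, and 64.8, 117 and 145 CPM at Stage 4. For 12 of the 14 genes the libraries of the stages did not overlap, and all 14 were called higher in Stage 6 against Stage 3. Among all called rises these shares were 88.8% and 93.2%, and over all tested genes 16.4% and 29.1%. The whole run was near silent early, with no member above a mean of 0.394 CPM at Stage 2 or 0.272 CPM at Stage 3, and its median member was highest at Stage 8, at 146 CPM.

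The next run held 11 called rises, from LOC112577370 to LOC112577374. The summed level of its genes was 347, 334 and 542 CPM in the Stage 5 libraries, and 78.8, 114 and 133 CPM in the Stage 4 libraries. Its log2 fold changes ran from 0.65 to 2.85, and that of its first gene, 0.65, stood apart from the other 10, which lay from 2.11 upward. Except for that first gene, with 8.91 CPM at Stage 3, its members averaged under 0.1 CPM at Stage 2 and Stage 3. A run of 5 called rises, from LOC112577358 to LOC112577022, lay 9 tested genes away on the same linkage group, with log2 fold changes from 2.44 to 3.07. Replicate 3 of Stage 5 was the highest library of both in summed level, as it also was in the run of 14 genes.

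Another run held 7 genes of low level, from LOC112555750 to LOC112555741, with log2 fold changes from 3.13 to 4.96. The summed level of its genes was 37.9, 15.6 and 37.6 CPM in the Stage 5 libraries, and 1.31, 0.907 and 3.00 CPM in the Stage 4 libraries. Replicate 2 of Stage 5 was the lowest for this run, though not for the run of 14 genes. The 10 tested genes just before it had log2 fold changes of -0.61 to 0.46. Of the 10 just after it, LOC112555739 and LOC112555746 were called higher, at 3.75 and 2.50, and the others were not called, with values of -0.08 to 5.27. The only run of falls with 5 or more genes, from LOC112576517 to LOC112576563, had small log2 fold changes, from -0.52 to -0.24.

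The runs were singled out after their values were seen and carry no test of their own. Reads that match several similar genes may have been counted in more than one of them or in none, and whether genes of a run are copies of each other was not examined. With limma-voom the longest run of rises was 5 genes, and in the edgeR fit of Stage 5 and Stage 4 alone it was 7. Leaving out each of the 6 libraries in turn gave a longest run of 11 to 14 genes.

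**Figure D5:**
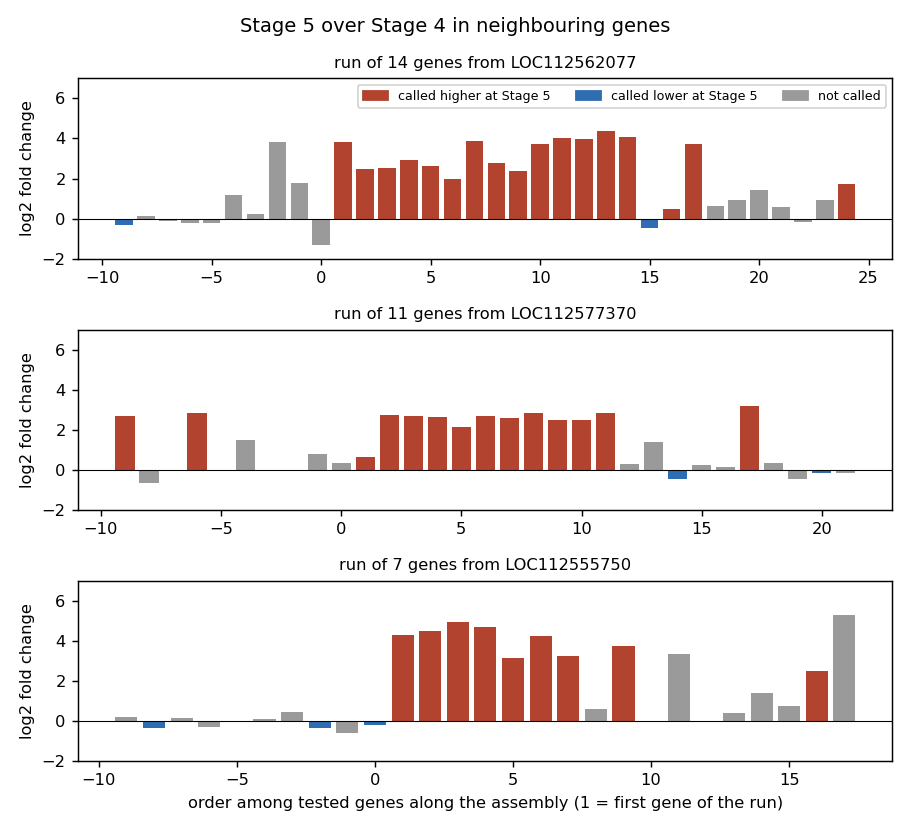
Log2 fold change of Stage 5 over Stage 4 (y axes) in neighbouring tested genes (x axis, order along the assembly, 1 is the first gene of the run), for the runs of 14, 11 and 7 called rises with 10 tested genes on each side. Bars of called rises stand in an unbroken row in each panel, and the genes on each side are mixed in direction and size.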

How the data were processed

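The data are the authors' deposited read counts, whole numbers for each gene in each library, not normalized. Per the submitters' processing notes STAR was used. For its version, counting settings, strandedness, genome build and annotation, nothing is stated: they are not given in the sources used. The table lists 21131 genes, and all 21131 matched a protein-coding symbol of the RefSeq table of assembly ASM307304v1, which was used for gene order only. The 37 gene lists chosen by product name could not be applied.

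The filterByExpr filter of edgeR (by stage, minimum count 10) left 17441 genes. Libraries were scaled by TMM, and edgeR 4.0.16 (quasi-likelihood, R 4.3.3) was fitted with 1 coefficient per stage to all 34 libraries, leaving 24 residual degrees of freedom. P-values were adjusted by Benjamini-Hochberg over all tested genes, and a gene is called where the adjusted p is under 0.05. The fit was tested on simulated data. Limma 3.58.1 (voom), DESeq2 1.42.0, other scalings, no filter, a replicate block, a 2-fold minimum, the compared stages alone and each library left out were tried. Thinning used NumPy 2.4.6 and exact permutation tests SciPy 1.17.1.

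Named genes were the 2 rises and 2 falls of largest log2 fold change and the 2 of each of largest difference in CPM, under the conditions given with them. The comparison, the members and the lists were chosen with earlier results of these data known.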

Additional observations from a re-analysis of the deposited data

Results flagged for a closer look

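The named genes were also checked for a library that stands apart in the stages with 4 libraries. These stages enter the comparison of Stage 5 with Stage 4 only through the shared filter, scaling and spread. Of 32 groups of 4 libraries, 4 had a library whose gap to its nearest neighbour was over the 95% limit of Dixon's test, and chance gives about 1 in 20 such groups. LOC112560630 stood at 37.6 CPM in replicate 3 of Stage 9, with the other libraries from 167 to 171 CPM. LOC112565028 stood at 1179 CPM in replicate 2 of Stage 8, with the others from 979.6 to 993 CPM, and at 1034 CPM in replicate 2 of Stage 10, with the others from 682 to 732 CPM. LOC112561451 stood at 31.3 CPM in replicate 3 of Stage 10, with the others from 39.0 to 40.3 CPM.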

How the results depend on the processing

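The counts of Stage 5 against Stage 4 (3958 calls, 2089 rises and 1869 falls) moved by over 1.5 times under 5 settings besides the libraries left out. In the fit of these stages alone there were 1817 calls, 1034 rises and 783 falls. That fit with the replicate number as a block gave 557 calls, 416 rises and 141 falls. Against a 2-fold minimum there were 296 calls, 287 rises and 9 falls, because small changes cannot pass it. Library totals gave 832 falls, and limma-voom gave 1324 rises. The cause of the last 2 was not tested. Leaving out each library in turn gave 2546 to 4366 calls, 1501 to 2284 rises and 1045 to 2082 falls.

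No clear likeness was seen between same-numbered libraries of the stages. The correlation of the deviations of same-numbered libraries was -0.17, 0.0875 and 0.0624 for replicates 1, 2 and 3. With 3 libraries a stage these values cannot decide whether replicate numbers pair the libraries. The labels do not say what a replicate number shares. With the replicate block in the fit of all 34 libraries there were 3815 calls, 2000 rises and 1815 falls, and 9069 calls in Stage 6 against Stage 3.

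Stage 6 against Stage 3 gave 9173 calls, 2289 against a 2-fold minimum and 8393 to 8637 with each of its libraries left out. The share of called rises also called higher there ran from 92.5% to 97.9% over the 9 alternatives. That of called falls also called lower ran from 93.4% to 97.4% over 8 of them and was 55.6% (5 of 9 genes) against a 2-fold minimum. Neighbouring pairs of rises numbered 46 to 766 over all alternatives, and under each of them the share of rises followed by a rise was above its background. The differences in genes with 10 reads or more (502 to 593), in the share of the 10 most abundant genes (-0.476 to -0.385 percentage points) and in position (0.351 to 0.436) kept their direction without each library, where the smallest possible p is 0.2. All 8 named genes kept their direction under every alternative. Besides the call of LOC112574335 noted above, calls were lost against a 2-fold minimum for LOC112562047, LOC112574335 and LOC112565028, and with the block in the fit of these stages alone for LOC112562047 and LOC112574335.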
